A study of Rattus norvegicus with 2 samples.

Results

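Actin isoforms are near-identical proteins made from separate genes, and their transcripts were followed here in A7r5, an established line of vascular smooth muscle cells that came from embryonic rat aorta. The 6 genes asked for were Acta2 and Actg2, the vascular and enteric smooth muscle actins, Acta1 and Actc1, the skeletal and cardiac muscle actins, and Actb and Actg1, the cytoplasmic beta and gamma actins. A probe set, the group of short probes that together read a transcript, was taken for an isoform when the array's annotation listed that gene and no other. This rule gave 4 probe sets for 4 of the 6 genes, Acta2, Actg2, Acta1 and Actg1, out of 10411 genes with a probe set of their own on the array. In the annotation used here Actc1 and Actb were listed together with other actin genes, on 5 probe sets that are described below by their identifiers and are assigned to no gene.

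The GLUT1 group was 1 pool of cells exposed over 72 hours to adenovirus that encodes human GLUT1, and the control group was 1 pool exposed as long to the empty adenovirus. GLUT1, the product of SLC2A1, is a facilitative glucose transporter, and the comparison asks what more of it does to vascular smooth muscle cells. Both pools were kept in 5.5 mM glucose at a multiplicity of infection of 10, where a multiplicity of 1 meant 100 particles per cell. Each pool joined RNA from 3 days and was read on 1 array, and both pools were exposed to a virus.

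Actin monomers assemble into filaments that, with myosin, generate force in muscle and shape in every cell. Cells of the vessel wall are known to raise Acta2 as they mature towards the contractile state and to lower it when they turn to growth and migration, while the beta and gamma forms serve the cortex and the moving edge. Many actin genes are controlled by serum response factor, SRF, which binds the CArG box, and by the cofactor MRTF, which free actin monomers hold in the cytoplasm, so that the state of the filaments feeds back on actin transcription.

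The matches to the CArG box in the isoforms with their own probe set are shown because SRF acts through this box. Full matches and those with 1 core base that is G or C are printed. The sequences are RefSeq's, from assembly GRCr8, read 5′ to 3′ on the minus strand, where each of these genes lies, with the match in capitals and 25 flanking bases on each side in lower case.
Acta2, chr1:241172603-241172662: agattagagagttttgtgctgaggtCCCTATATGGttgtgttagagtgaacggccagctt
Acta2, chr1:241172553-241172612: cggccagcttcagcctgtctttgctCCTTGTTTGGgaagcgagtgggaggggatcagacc
Acta1, chr19:68784382-68784441: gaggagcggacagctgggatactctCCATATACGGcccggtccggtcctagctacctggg
Acta1, chr19:68784331-68784390: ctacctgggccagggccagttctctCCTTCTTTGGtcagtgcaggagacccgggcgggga
Acta1, chr19:68784254-68784313: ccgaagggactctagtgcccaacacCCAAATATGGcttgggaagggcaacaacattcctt
Actg1, chr10:106121007-106121066: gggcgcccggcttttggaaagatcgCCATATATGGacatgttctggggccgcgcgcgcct

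A CArG box has 10 bases, a pair of C, a core of 6 bases that are each A or T, and a pair of G, and it reads the same way on both strands. The search covered 250 bases before and 50 bases from each gene's RefSeq start. A full match stood in the windows of Acta1, Actc1 and Actg1, beside 1.64% of the 33469 windows of all genes. The full match of Acta1 began 94 bases and that of Actg1 90 bases before the start, and in Actc1 the full match began at base 3 of the transcript. Matches with 1 core base that is G or C began 134 and 84 bases before the start in Acta2, which had no full match, and 222 and 171 bases before it in Acta1, and Actc1 had 3. With 1 such base allowed, 9.42% of all windows held a match, as did 4 of the 5 isoform windows in the table. The window listed for Actg2 held none, and Actb was not searched here. A match describes these letters only, and occupancy was not measured.

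The arrays gave 1 linear intensity for each of 15923 probe sets, with a median of 508 on each array. The GLUT1 array was scaled by a shift of -0.0014 on the log2 scale, so that brighter probe sets had a median log2 ratio of 0, and intensities below 175 were raised to that floor. A probe set counted as measured when its mean log2 intensity over both arrays reached 8.99, the median of all probe sets, which kept 7962. A log2 ratio is GLUT1 over control throughout, and a call needed a 2-fold difference. With 1 array a group no p-value, standard error or replicate check was possible, and the number of arrays limits the precision. As a yardstick, each ratio is set against its local spread, the median absolute deviation, scaled to an SD, of the ratios of the 500 measured probe sets nearest in brightness. The rat Slc2a1 probe set read 3121 in the GLUT1 pool and 2902 in the control pool, and whether its probes bind the human transgene was not tested.

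None of the isoforms approached a 2-fold difference. All 4 probe sets were measured on these terms, 0 of the 4 passed 2-fold, and 0.0251% of all measured probe sets did. The median log2 ratio of the 4 was -0.02, beside 0.00 over all measured probe sets, with 2 above and 2 below 0. Actg2, the lowest at -0.21, was the isoform whose ratio exceeded its local spread. Because that spread is scaled to an SD, many probe sets exceed theirs, and their share was not counted. The 5th percentile of the log2 ratio over all measured probe sets was -0.22, so lower ratios than that of Actg2 were not rare on the array. In pooled RNA, fewer cells expressing an isoform and less of its RNA per cell cannot be told apart.

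**Figure D1:**
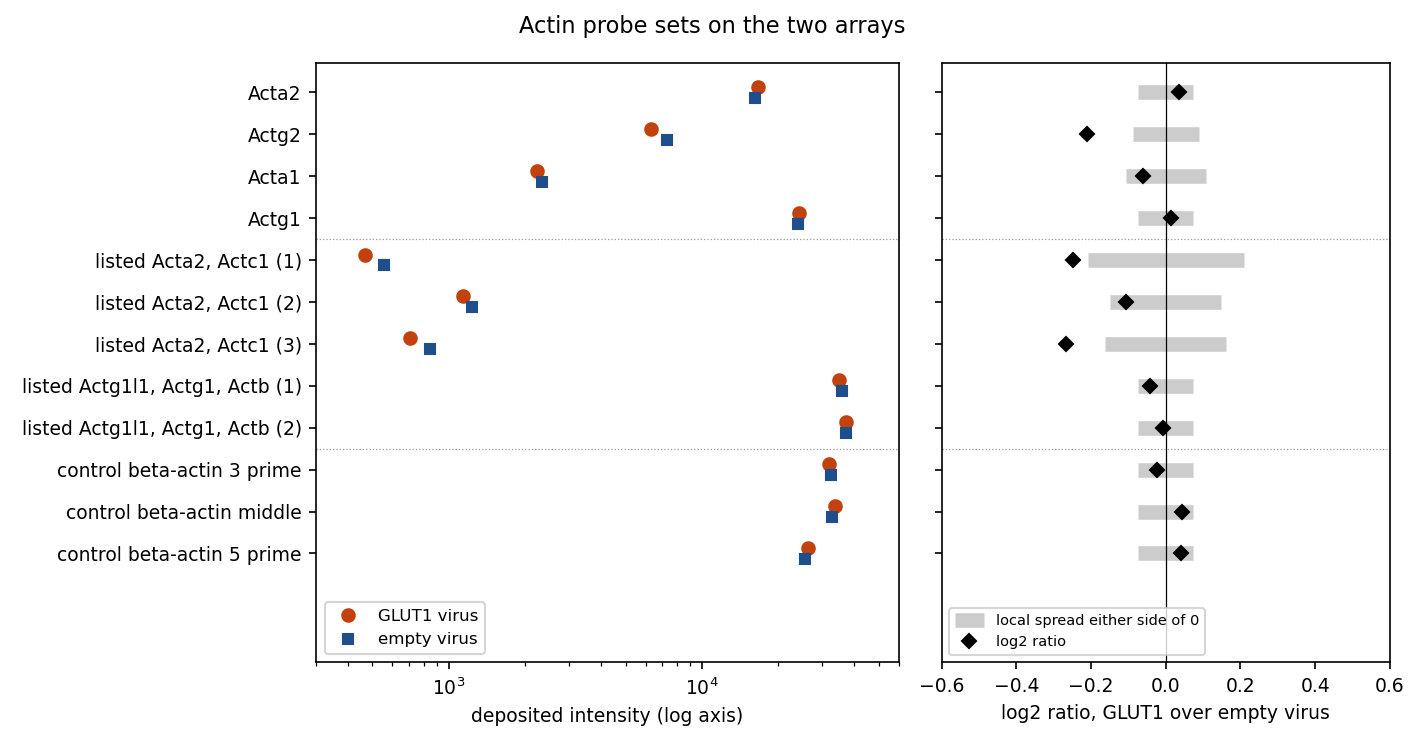
The left panel plots the deposited intensity of 12 actin probe sets (log axis) on the GLUT1 array (circles) and the control array (squares), and the right panel plots the log2 ratio of GLUT1 over empty virus (diamonds) on a band of 1 local spread either side of 0. Probe sets of single isoforms stand at the top, those listed for several genes in the middle and the manufacturer's beta-actin controls at the bottom. Actg2 at -0.21 lies outside its band of 0.089. Of the sets listed for Acta2 and Actc1, 1370856_at at -0.25 and 1374353_x_at at -0.27 also lie outside their bands of 0.21 and 0.16.

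The smooth muscle actins gave unequal ratios on the 1 probe set that each had of its own. For Acta2, 3 further sets listed jointly with Actc1 had log2 ratios from -0.27 to -0.11, all below 0 as for Actg2. Acta2 (probe set 1370857_at), the isoform of the vascular contractile filament and the most used marker of vascular smooth muscle, read 16687 in the GLUT1 pool and 16303 in the control pool. Its log2 ratio was 0.03, 0.476 times its local spread of 0.073, so the pools lay closer together than probe sets of like brightness usually do. The probe set ranked 156 of 15923 on the GLUT1 array and 164 on the control array, where 1 is the brightest.

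Actg2 (probe set 1386869_at), the gamma isoform that predominates in visceral smooth muscle such as gut and bladder, read 6290 in the GLUT1 pool and 7290 in the control pool. The log2 ratio was -0.21, or 0.864 times the control intensity, and 2.38 times the local spread of 0.089. Its rank was 720 on the GLUT1 array and 570 on the control array. The lower reading was that of the GLUT1 pool, with a single probe set and a single array behind each value.

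Of the striated muscle actins, Acta1 (probe set 1369928_at), the isoform of the adult skeletal sarcomere, read 2240 in the GLUT1 pool and 2339 in the control pool. The log2 ratio was -0.06, 0.57 times the local spread of 0.11. Although Acta1 is named for skeletal muscle, the other markers of that tissue were mostly dim here. Of 21 skeletal markers on the array 2 were measured, Myh1, a fast myosin heavy chain, and Des, and 10 lay at or below the floor on both arrays, among them Myod1, the determining factor of the skeletal lineage, Myh2, Myh4, Tnnt3 and Ryr1. All 21 skeletal markers together, with any value below 0 taken as 0 in this and the later marker sums, had a summed intensity of 7647 on the GLUT1 array and 8311 on the control array, of which Myh1 gave 3662 on the GLUT1 array and 4585 on the control array. The part of these markers in the Acta1 reading was not tested.

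Actc1, the actin of the heart sarcomere that is also made in developing skeletal and smooth muscle, had no probe set of its own. The annotation lists it jointly with Acta2 on 3 probe sets. Probe set 1370856_at read 469 in the GLUT1 pool and 558 in the control pool, at a log2 ratio of -0.25 and 1.20 times its local spread of 0.21. Probe set 1374352_at read 1144 in the GLUT1 pool and 1233 in the control pool, at a log2 ratio of -0.11, within its local spread of 0.15.

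Probe set 1374353_x_at read 704 in the GLUT1 pool and 848 in the control pool, at a log2 ratio of -0.27 and 1.65 times its local spread of 0.16. In the manufacturer's naming the letter x marks a set whose probes can bind other transcripts. All 3 were lower in the GLUT1 pool, while the single-gene set of Acta2 had a ratio of 0.03. The last 2 of the 3 were designed on 1 source sequence and are not separate evidence, and 0 of the 3 reached 2-fold. Of 16 cardiac markers on the array 2 were measured, Tnnc1 and Nkx2-5, and all 16 had a summed intensity of 16099 on the GLUT1 array and 16106 on the control array. Most of each sum came from Tnnc1, at 12071 on the GLUT1 array and 12199 on the control array. Both heavy chains of cardiac myosin, Myh6 and Myh7, were at or below the floor on both arrays, as were Myl3, Myl4, Myl7 and Ryr2.

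Of the cytoplasmic actins, Actg1 (probe set 1371327_a_at), the gamma isoform of non-muscle cells, read 24129 in the GLUT1 pool and 23920 in the control pool. The log2 ratio of 0.01 was 0.19 times the local spread of 0.073, the smallest multiple among the 4 isoforms. The letter a in the identifier marks a set that reads several transcripts of 1 gene.

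Actb, the beta isoform and a customary reference gene, was likewise not read by a probe set of its own, and the annotation lists it with Actg1 and Actg1l1 on 2 probe sets. Both were designed on the RefSeq transcript of Actb, yet neither is assigned to it here because their probes are listed for all 3 genes. Probe set 1398835_at read 34896 in the GLUT1 pool and 35940 in the control pool, a log2 ratio of -0.04. Probe set 1398836_s_at read 37026 in the GLUT1 pool and 37272 in the control pool, a log2 ratio of -0.01. The second was the brightest of all probe sets on the control array and held rank 2 on the GLUT1 array, and the first held rank 3 on the control array and rank 4 on the GLUT1 array.

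**Figure D2:**
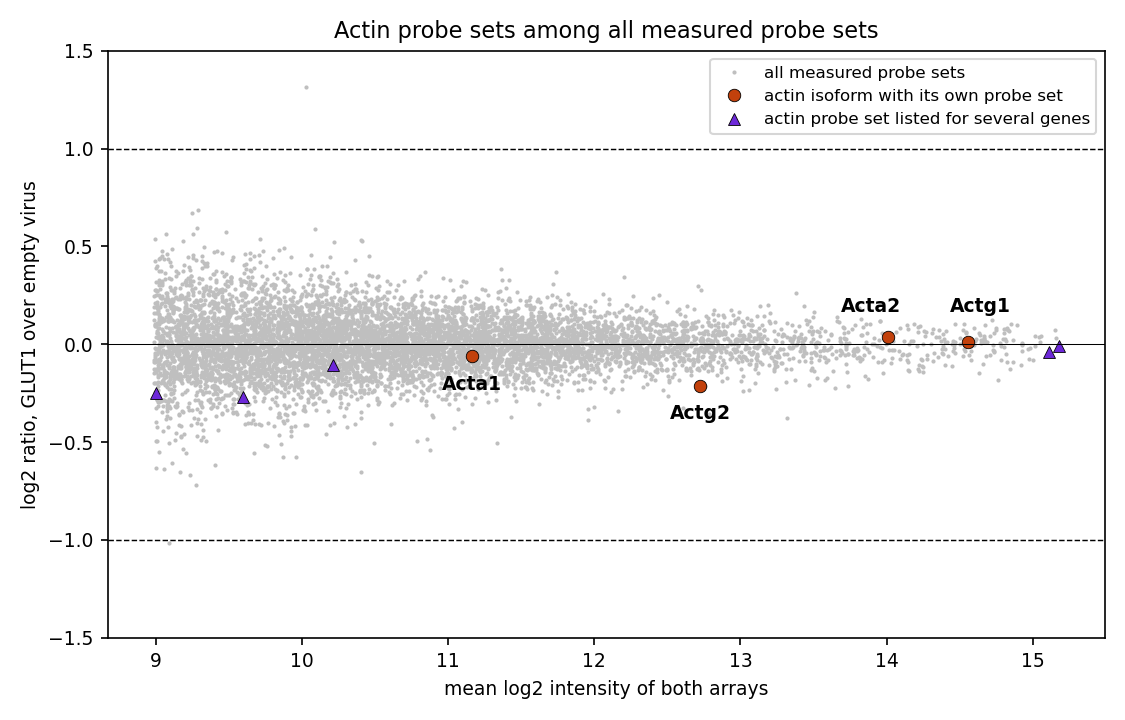
Each grey point is 1 of the 7962 measured probe sets, placed by the mean log2 intensity of both arrays (horizontal) and the log2 ratio of GLUT1 over empty virus (vertical), with the 2-fold threshold dashed. The 4 isoforms (circles) and the 5 actin probe sets listed for several genes (triangles) all lie inside the threshold, and the spread of the grey points narrows as brightness grows.

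The manufacturer placed 3 further probe sets along the beta-actin transcript as a control of RNA integrity. The 3′ set read 31715 in the GLUT1 pool and 32293 in the control pool, a log2 ratio of -0.02. The middle set read 33600 in the GLUT1 pool and 32605 in the control pool, a log2 ratio of 0.04. The 5′ set read 26346 in the GLUT1 pool and 25628 in the control pool, a log2 ratio of 0.04. Together with the 2 sets listed for Actb, Actg1 and Actg1l1, the 5 probe sets had log2 ratios from -0.04 to 0.04, 2 above and 3 below 0, each within the local spread of 0.073. These sets can read the same transcript and are not separate samples.

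Copying of mRNA from its 3′ end leaves the 5′ end weaker where RNA is broken, so the ratio of 3′ to 5′ signal describes the RNA of each pool. For beta-actin it was 1.20 in the GLUT1 pool and 1.26 in the control pool. For Gapdh, the glycolytic enzyme read by the same design, it was 1.24 in the GLUT1 pool and 1.16 in the control pool. The pools therefore differed in opposite directions on the 2 transcripts.

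**Figure D3:**
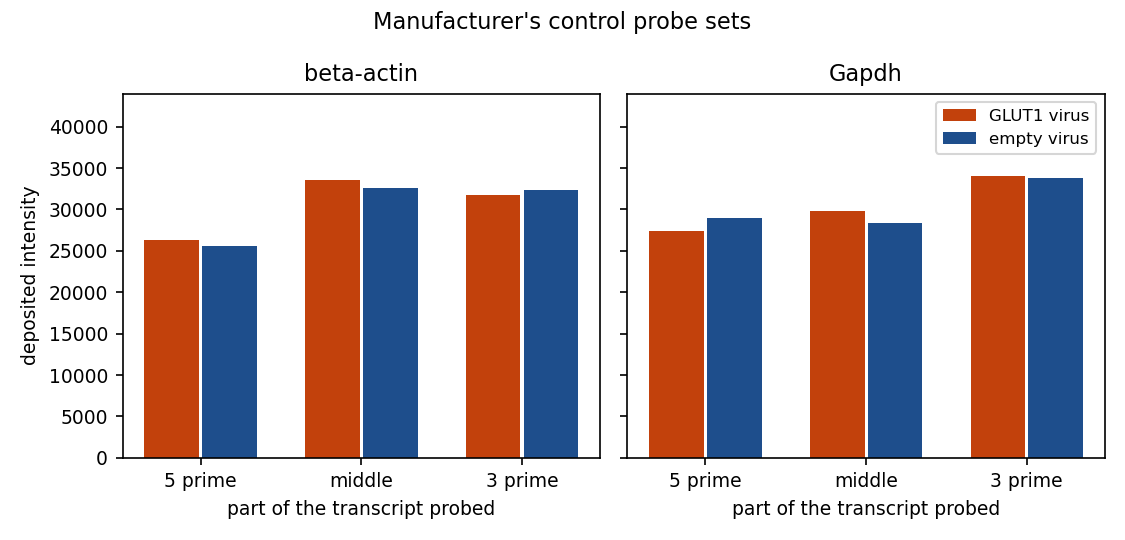
Bars show the deposited intensity (vertical, from 0) of the manufacturer's probe sets at the 5 prime end, middle and 3 prime end of beta-actin (left) and Gapdh (right), for the GLUT1 pool (first bar) and the empty virus pool (second bar). The beta-actin 5 prime set read 26346 in the GLUT1 pool and 25628 in the empty virus pool, the lowest of the 3 positions in each.

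Intensities of different probe sets cannot be ordered as amounts of mRNA, because each set has its own probes and binding strength. The change between arrays can be set isoform against isoform, since each set is then its own reference. Among the 6 pairs of the 4 isoforms the widest difference of log2 ratios was 0.25, Acta2 minus Actg2, which was 2.14 times the combined local spread of 0.12. Actg2 minus Actg1 was -0.23, and Actg2 minus Acta1 was -0.15. The 3 pairs without Actg2 differed by 0.10 or less, below their combined local spreads, with Acta2 minus Actg1 at 0.02. On these probe sets the isoforms other than Actg2 kept nearly the same relative readings, as far as 1 array per pool shows. The 3 sets listed jointly for Acta2 and Actc1, all lower in the GLUT1 pool, are outside these pairs.

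The cells carried further smooth muscle markers unevenly. Of 8 on the array 4 were measured, Tagln, Cnn1, Smtn and Des, and their median log2 ratio was 0.06. Myh11, the smooth muscle myosin heavy chain and the strictest marker of the mature cell, read 228 in the GLUT1 pool and 227 in the control pool, below the brightness threshold, and Itga8 was below the floor on both arrays. Over the whole list the summed intensity was 14307 on the GLUT1 array and 13679 on the control array. Of the other cell types, 1 of 8 endothelial and 2 of 9 leukocyte markers were measured. The endothelial gene was Esam, which read 479 in the GLUT1 pool and 584 in the control pool. The leukocyte genes were Cd14 and C1qb. Cd14 read 1398 in the GLUT1 pool and 1235 in the control pool. C1qb read 1014 in the GLUT1 pool and 1352 in the control pool. Pecam1, Kdr and Ptprc were at or below the floor on both arrays. Endothelial markers summed to 1603 on the GLUT1 array and 1875 on the control array, and leukocyte markers to 4058 on the GLUT1 array and 4464 on the control array. Fibroblast markers were measured in 5 of 10 and summed to 65472 on the GLUT1 array and 64278 on the control array, mostly from the type I collagen genes, which smooth muscle also makes. The part of these genes in the actin readings was not tested.

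The genes that fold, assemble, hold and regulate actin were taken as 7 lists, in which a gene is represented by its brightest probe set. Over the lists 118 genes had a probe set of their own and 102 were measured, with 46 above and 56 below 0. Their median log2 ratio was -0.01, beside 0.01 over the 6114 measured genes of the array, of which 52.2% lay above 0. No gene of the 7 lists passed 2-fold, where 0.0164% of all measured genes did.

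**Figure D4:**
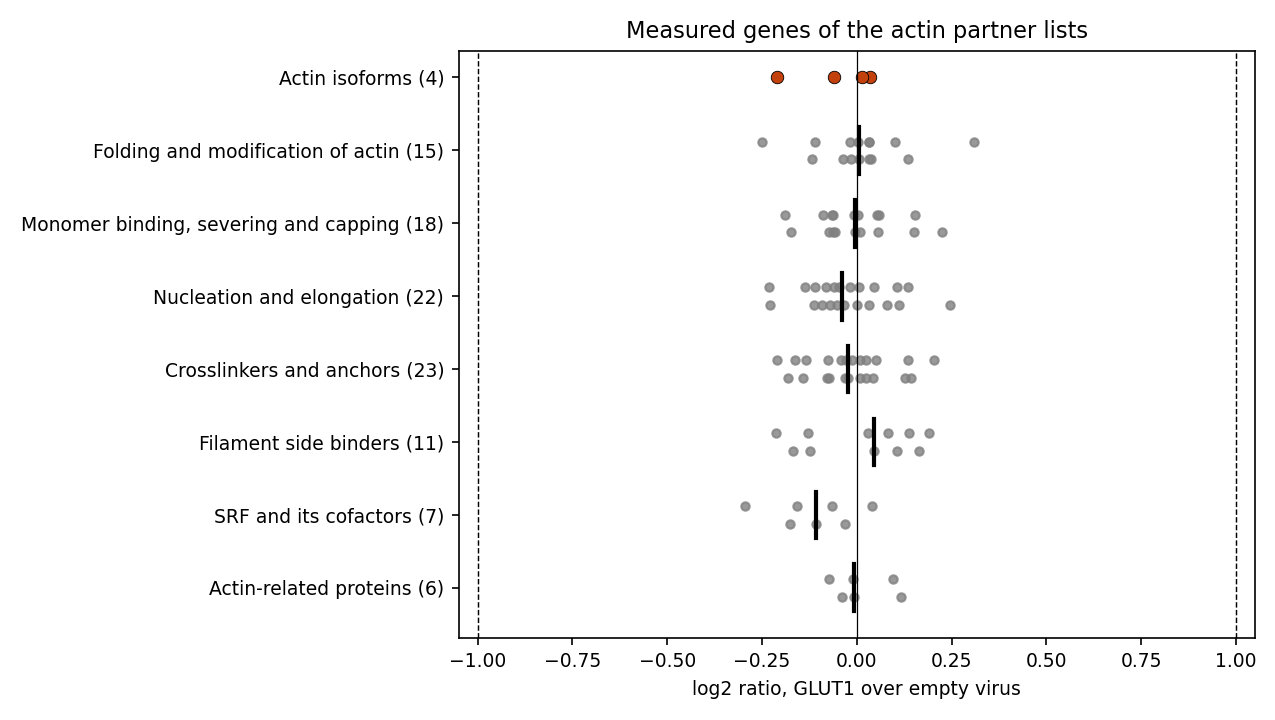
Each point is a measured gene, placed by its log2 ratio of GLUT1 over empty virus, in rows for the 4 actin isoforms and the 7 partner lists, with the number of measured genes in brackets, the list median as a vertical bar and the 2-fold threshold dashed. The medians run from -0.11 for SRF and its cofactors to 0.04 for the filament side binders, and Pfdn6 at 0.31 stands farthest out.

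New actin chains are folded by prefoldin and the ring-shaped chaperonin CCT. Of this list 15 genes were measured, 9 above and 6 below 0, with a median log2 ratio of 0.01. The brightest were the CCT subunits Cct4, at 16688 in the GLUT1 pool and 16332 in the control pool, and Tcp1, at 15550 in the GLUT1 pool and 15228 in the control pool. Both had log2 ratios of 0.03. The farthest from 0 were the prefoldin subunit Pfdn6, at 0.31 and 3.07 times its local spread, and the chaperonin subunit Cct8, at -0.25.

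Free monomers are held by thymosin and profilin, and filament ends are capped or cut by other proteins. This list had 18 measured genes, 8 above and 10 below 0, and a median log2 ratio of -0.01. Pfn1, profilin, read 20709 in the GLUT1 pool and 19900 in the control pool, a log2 ratio of 0.06. Tmsb4x, thymosin beta-4, read 20431 in the GLUT1 pool and 21408 in the control pool, a log2 ratio of -0.07. The widest ratios were those of the monomer binder Twf2, at 0.23, and the pointed-end cap Tmod3, at -0.19.

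The genes that start and lengthen filaments, the Arp2/3 complex, formins and their activators, gave a median log2 ratio of -0.04 across 22 measured, with 9 above and 13 below 0. Arpc1b, an Arp2/3 subunit, read 11161 in the GLUT1 pool and 11725 in the control pool, and Nckap1, of the WAVE complex, 9393 in the GLUT1 pool and 10140 in the control pool. The formin Diaph1 had the highest ratio, 0.25, and Wasl, which switches on Arp2/3, the lowest, -0.23. A second measured probe set of Wasl gave -0.32, and one of Nckap1 gave 0.01 against -0.11 for its brighter set. Actin-related proteins outside Arp2/3 gave a median of -0.01 over 6 measured, 2 above and 4 below 0, with the dynactin subunits Actr1b and Actr1a highest at 0.12 and 0.10. A second set of Actr1b gave -0.14, and Actr10, also of dynactin, had -0.01.

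Crosslinkers and anchors, which bundle filaments and tie them to the membrane, gave a median log2 ratio of -0.02 across 23 measured genes, 10 above and 13 below 0. Flna, filamin A, read 13641 in the GLUT1 pool and 13421 in the control pool, and Lasp1 read 13424 in the GLUT1 pool and 13556 in the control pool. The adhesion protein talin, Tln1, had 0.20 and the bundler plastin 3, Pls3, -0.21, with -0.06 from a second set of Pls3. Dimmer second sets of the membrane linker moesin, Msn, and of Pdlim7 gave -0.50 and 0.46, or 4.04 and 3.35 times their local spread, against -0.07 and 0.04 from the brighter sets. Proteins that lie along the filament had a median of 0.04 over 11 measured, 7 above and 4 below 0. Among them Tpm4, a tropomyosin, was both bright and far from 0, at 12660 in the GLUT1 pool and 14689 in the control pool. Its log2 ratio of -0.21 was 2.82 times the local spread, and its second probe set, at 6242 in the GLUT1 pool and 7276 in the control pool, gave -0.22. Tagln2 had 0.14 and Smtn, smoothelin, 0.19. The tropomyosins Tpm1 and Tpm3 are named because their probe sets disagreed in direction. Tpm1 had -0.17 from its brightest set and 0.05, 0.11 and 0.25 from dimmer ones. Tpm3 had -0.12 from its brightest set and from -0.22 to 0.07 from dimmer ones.

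SRF and its cofactors had the lowest list median, a log2 ratio of -0.11 over 7 measured genes, of which 6 lay below 0. With the filter at the 75th percentile, or with probe sets averaged, this median was -0.06. Srf itself read 1171 in the GLUT1 pool and 1325 in the control pool, a log2 ratio of -0.18, and 837 in the GLUT1 pool and 988 in the control pool on its second probe set, a ratio of -0.24. Gata6, a transcription factor of smooth muscle, had -0.29, Tead1, a factor of muscle and growth genes, -0.11 with -0.22 from a second set, and Fhl1 -0.03. Mrtfa, named after its value was seen because it is the cofactor that actin monomers bind, had -0.06. Each multiple of the local spread in this list was below 2 for the brighter probe sets, while the second set of Tead1 was at 2.53 times. Second sets pointed the same way as the brighter ones in Srf, Tead1 and Fhl1. They pointed the other way in Elk3, at 0.07 against -0.16, and in Fhl2, at -0.06 against 0.04, both named for that reason. Myocd, the muscle cofactor of SRF, was not analysed here.

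Some partner genes were read by 2 or more measured probe sets. In 19 of 30 such genes the 2 brightest sets pointed the same way, or 63.3%, beside 50.9% of the 702 such genes on the array. Both sets were below 0 in 18 of the 30, or 60%, beside 240 of the 702, or 34.2%. Both were above 0 in 1 of the 30, beside 117 of the 702. The lean below 0 was thus also present among all 702 such genes, at a smaller share than in the partner genes. It was not a lean of the whole array, where 52.2% of the 6114 measured genes lay above 0. Srf, Tead1, Wasl and Tpm4 are among the 18. These shares describe 2 arrays, and the genes are not independent replicates.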

How the data were processed

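The authors deposited 1 linear intensity per probe set and array, in whole numbers, with about 3.04% (GLUT1) and 3.01% (control) of values at or below 0. Per the labels' protocols, 5 µg of total RNA per pool was labelled with biotin. For the software, the probe set summary and the matching of the arrays, the method was not given in the sources used here. Both arrays had quartiles of 175 and 1507.5, and their sorted values differed by a median of 1 unit and at most 1066. Whether the authors matched the arrays was not tested, and a change in total mRNA cannot be read from these values.

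Gene names were those of the platform annotation, brought up to date by gene ID in RefSeq's GRCr8 table: 12783 probe sets listed 1 gene, 312 several and 2771 none, beside 57 manufacturer's controls. Scaling, floor (25th percentile of both arrays), log2, filter and ratios were computed in Python 3.11.15 with numpy 2.4.6 and pandas 2.3.3, and figures drawn with matplotlib 3.10.9. The steps were tested on simulated data. Named from each list were the 2 measured genes farthest from 0 and the 2 brightest. Isoforms and lists were chosen with earlier results of these data known. Scaling, floor, offset, filter, probe set averaging and fold were varied. A further gene list is not reported here.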

Additional observations from a re-analysis of the deposited data

How the results depend on the processing

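No paired analysis was possible because a single array stands for each pool. Without scaling, with quantile normalization, with floors at the 10th and 40th percentiles and with log2(intensity + 50), the log2 ratio ran from 0.034 to 0.036 for Acta2, from -0.22 to -0.21 for Actg2, from -0.062 to -0.058 for Acta1 and from 0.0038 to 0.014 for Actg1. Quantile normalization gave the 0.0038 for Actg1. The isoforms lie far above the floors, which could therefore hardly alter them. The scaling shift was only -0.0014 and the sorted values of the arrays were already nearly alike. Leaving out the scaling or matching the arrays by quantiles could therefore move the ratios little. Each isoform has 1 probe set, so averaging could not alter it. The count of isoforms past the threshold was 0 at 2-fold, at 1.5-fold and at the smallest fold tried. The count of measured genes past 2-fold, 1, became 8 at 1.5-fold and 9 with no filter, which admits dim probe sets. With no filter the list medians turned to 0.0026 over 25 genes for monomer binding, severing and capping and to 0.04 over 8 genes for actin-related proteins. The median for SRF and its cofactors, -0.11, was -0.064 with the filter at the 75th percentile and with averaging. The other list medians kept their sign under the filters, averaging and scaling tried.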

Other observations

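A pair of genes named for the heart read above the brightness threshold in both pools, and are given as values chosen after they were seen. Tnnc1, the troponin C of heart and slow skeletal muscle, read 12071 in the GLUT1 pool and 12199 in the control pool, a log2 ratio of -0.01. Nkx2-5, a transcription factor of the developing heart, read 1313 in the GLUT1 pool and 1200 in the control pool, a log2 ratio of 0.13. Both Nkx2-5 readings lay below the upper quartile of 1507.5. The partners of troponin C in the sarcomere were dim: Tnnt2 read 243 in the GLUT1 pool and 290 in the control pool, and Tnni3 read 246 in the GLUT1 pool and 225 in the control pool. Of the skeletal markers, Myh1 read 3662 in the GLUT1 pool and 4585 in the control pool, a log2 ratio of -0.32, while the related heavy chains Myh2 and Myh4 were below the floor on both arrays. Each of these genes is given by its brightest probe set.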
